A study of Mus musculus with 28 samples.

Results

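The genes described here are the matrix metalloproteases (MMPs), the ADAMTS enzymes, the ADAMTS-like proteins and the tissue inhibitors of metalloproteases (TIMPs) of the mouse liver. They were taken by symbol, as every gene named Mmp, Timp, Adamts or Adamtsl followed by a digit, with macrophage elastase left out of the set. The rule found 50 genes of the 20416 in each deposited table. RNA had been sequenced from livers of male C57BL/6 mice in 2 mouse models of non-alcoholic steatohepatitis, in which a fatty liver becomes inflamed and scarred. MCD livers came from mice fed a diet deficient in methionine and choline, and CD livers from mice fed the matched control low-fat diet, with 4 libraries in each group. STAM livers came from mice given streptozotocin, a toxin of insulin-producing cells, at postnatal day 2, then a high-fat diet from week 4 on. Ctrl livers were from the corresponding control mice, and STAM and Ctrl livers were taken at 4 and at 10 weeks of age, with 5 libraries in each of these 4 groups. For the MCD and CD mice the titles give 4 weeks on the diet and another label gives 5wk as the study duration. The 4-week STAM libraries carry the high-fat diet in their labels although that diet began at week 4. Each library is a whole-liver sample, so a lower level from fewer cells of a type cannot be told apart from less RNA per cell. The labels do not say whether replicates of a group came from separate mice, and the p-values therefore measure only how far these samples spread, which may be technical in part or whole.

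MMPs are zinc-dependent proteases that cut collagens and other proteins of the extracellular matrix, and most are made as inactive proenzymes that other proteases such as plasmin activate. TIMPs bind active MMPs and block them. ADAMTS enzymes are related secreted proteases that trim procollagens, cut proteoglycans such as versican, or cut von Willebrand factor, while ADAMTS-like proteins carry the same accessory domains without a protease domain. In liver these genes are known for the turnover of scar matrix, with stellate cells and macrophages among their known sources.

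The libraries held 16.2 to 25.9 M reads assigned to genes, so that 3 reads equal at most 0.200 counts per M reads (CPM). Levels below are CPM on the authors' library scaling, and fold changes are log2 differences tested with limma over 15312 genes, with Benjamini-Hochberg adjusted p-values under 0.05 called. Any limit or interval computed from reads covers counting error only. Among the 10-week STAM libraries, replicate 5 was the highest for 30 of 41 tested members and the lowest for 0. Replicate 1 of the 4-week Ctrl livers was the lowest of its group for 19 of 43 tested members. Among the other libraries, CD replicate 1 was the highest for 19 of 41, CD replicate 4 the lowest for 19 of 41 and 4-week STAM replicate 3 the lowest for 18 of 43. The labelled tissue was checked with 10 hepatocyte markers, whose summed level lay between 52178 and 162101 CPM in every library.

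Reads were absent in all libraries of a table for a few members. In the MCD and CD table these were 6 genes, namely Adamts18, Adamts19, Mmp1a, Mmp1b, Mmp20 and Timp4. At 4 weeks the STAM and Ctrl table had 4, namely Adamts19, Mmp10, Mmp1a and Mmp1b. The 10-week table had 7, namely Adamts18, Adamts19, Adamts20, Mmp1a, Mmp1b, Mmp20 and Timp4. Of the 50 members, 41, 43 and 41 passed the filter on low levels in the MCD, 4-week and 10-week comparison, and 40 passed in all 3. The 7 that passed in none were Adamts18, Adamts19, Adamts20, Mmp10, Mmp1a, Mmp1b and Mmp20.

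A cluster of MMP genes on chromosome 9 spans 426.9 kb (mm10, chromosome 9, 7272514 to 7699416). It holds 9 members, in the order Mmp13, Mmp1b, Mmp3, Mmp1a, Mmp10, Mmp8, Mmp27, Mmp20 and Mmp7. The gene of macrophage elastase, left out of the set, lies between Mmp13 and Mmp1b. RefSeq promoter windows of 300 bases, from 250 before to 50 after the gene start in GRCm38.p6, the assembly that mm10 represents, were available for 35 of the 50 members. All 9 members in this cluster had a window. The letters TGANTCA of the AP-1 element, at which Fos and Jun proteins bind, read the same on both strands and were found in 7 of the 35 windows (20%), against 2565 of 32851 windows of all genes (7.81%). All 7 were in the cluster, whose other 2 member windows, those of Mmp8 and Mmp27, had no match. The TATA box letters TATAAA, searched on both strands, were in 31.4% of the members' windows and in 13.6% of all windows. The ETS letters AGGAAG were in 40.0% and 35.4%, and the RUNX letters TGTGGT in 14.3% and 16.8%. The windows of 5 genes are printed 5′ to 3′, with TGANTCA and TATAAA in capitals, because they set cluster genes that changed in these livers beside one that had no reads. They lie on the plus strand at chr9:7272264-7272563 for Mmp13, chr9:7445572-7445871 for Mmp3, chr9:7691840-7692139 for Mmp7, chr9:7463891-7464190 for Mmp1a and chr9:7571146-7571445 for Mmp27.
Mmp13: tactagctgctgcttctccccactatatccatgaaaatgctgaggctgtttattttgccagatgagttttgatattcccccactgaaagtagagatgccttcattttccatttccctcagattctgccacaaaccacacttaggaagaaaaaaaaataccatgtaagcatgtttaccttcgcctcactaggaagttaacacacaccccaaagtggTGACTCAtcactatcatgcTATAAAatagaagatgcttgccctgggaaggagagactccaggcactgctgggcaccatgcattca
Mmp3: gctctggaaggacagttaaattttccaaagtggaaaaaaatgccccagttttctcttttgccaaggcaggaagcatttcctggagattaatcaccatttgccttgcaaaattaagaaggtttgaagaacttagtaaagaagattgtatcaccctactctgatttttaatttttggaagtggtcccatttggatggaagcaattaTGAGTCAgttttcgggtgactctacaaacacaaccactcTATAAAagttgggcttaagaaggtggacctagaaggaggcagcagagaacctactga
Mmp7: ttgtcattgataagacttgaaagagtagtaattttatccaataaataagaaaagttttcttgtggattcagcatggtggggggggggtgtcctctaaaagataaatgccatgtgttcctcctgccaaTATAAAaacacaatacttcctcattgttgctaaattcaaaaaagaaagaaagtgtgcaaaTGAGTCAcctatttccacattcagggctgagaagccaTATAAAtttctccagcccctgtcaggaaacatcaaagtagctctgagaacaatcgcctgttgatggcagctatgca
Mmp1a: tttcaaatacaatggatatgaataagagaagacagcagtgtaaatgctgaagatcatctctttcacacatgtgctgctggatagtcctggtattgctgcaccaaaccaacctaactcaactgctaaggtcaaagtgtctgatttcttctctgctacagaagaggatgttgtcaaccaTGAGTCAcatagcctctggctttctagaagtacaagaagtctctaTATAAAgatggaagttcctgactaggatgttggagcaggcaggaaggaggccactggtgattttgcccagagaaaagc
Mmp27: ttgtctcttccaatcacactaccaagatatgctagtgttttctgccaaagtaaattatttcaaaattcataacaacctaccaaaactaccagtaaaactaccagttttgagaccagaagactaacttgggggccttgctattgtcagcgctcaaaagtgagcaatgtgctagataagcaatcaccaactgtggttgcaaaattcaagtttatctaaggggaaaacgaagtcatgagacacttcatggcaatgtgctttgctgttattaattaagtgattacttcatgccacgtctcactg
The AP-1 letters begin at position -35 in the Mmp13 window, -46 in that of Mmp3, -63 in that of Mmp7 and -73 in that of Mmp1a. Positions are counted from the start used for the window. For Mmp7 that start lies 21 bases from the deposited one, and for Adamts9, among the 35 windows, 42093 bases. Of the 7 genes with the letters, 3 (Mmp13, Mmp3 and Mmp7) were called higher in at least 1 comparison, while Mmp1a, Mmp1b, Mmp10 and Mmp20 had too few reads to be tested. Of all genes, 22.6%, 6.52% and 25.3% were called higher in the MCD, 4-week and 10-week comparison. The share of all genes called higher in at least 1 was not counted, and a link between the letters and the calls was not tested. Mmp27 was called higher in all 3 comparisons with no match in its window. A match to these letters describes the sequence only.

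**Figure D1:**
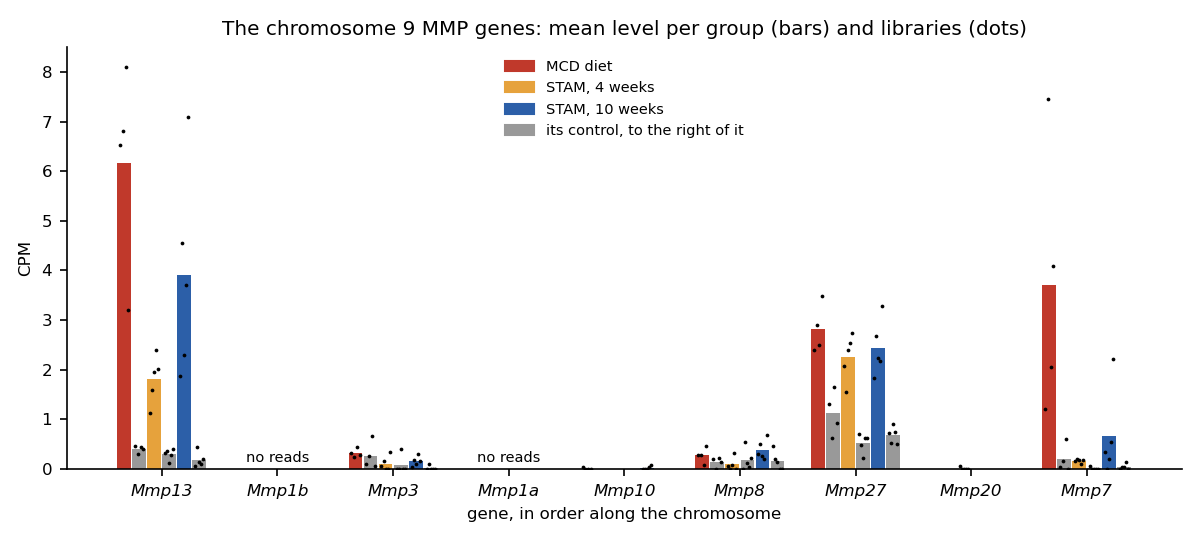
Levels in CPM of the 9 members of the MMP cluster in their order on chromosome 9, with bars for group means (grey for the CD or Ctrl group of the coloured bar to its left) and dots for libraries. Macrophage elastase, between Mmp13 and Mmp1b, is not shown. The bars of Mmp13 and Mmp27 are higher in MCD and STAM livers in all 3 pairs, while Mmp1a and Mmp1b had no reads.

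More members were called higher than lower in MCD livers and in 10-week STAM livers, and few were called at 4 weeks. In MCD livers 17 of 41 tested members were called higher and 2 lower, where 22.6% and 20.1% of all genes tested were called in those directions. At 4 weeks 6 of 43 were called higher and 1 lower in STAM livers, where the shares of all genes were 6.52% and 3.27%. At 10 weeks 25 of 41 were called higher and 4 lower in STAM livers, where the shares of all genes were 25.3% and 22.5%. Scaled by total reads instead, 27 members were called higher and 1 lower in MCD livers, where 49.55% and 7.98% of all genes were. Quantile normalization gave 12 higher and 2 lower in MCD livers (20.3% and 20.5% of all genes). It gave 5 higher and 3 lower at 4 weeks (5.59% and 3.75%), and 16 higher and 5 lower at 10 weeks (18.8% and 22.4%). Under it the MCD calls of Adamts6, Adamts14, Adamts17, Adamtsl4, Mmp19 and Mmp23 were lost, as was the 4-week call of Timp1. At 10 weeks those of Adamts6, Adamts9, Adamts10, Adamts15, Adamts16, Adamtsl1, Adamtsl4, Mmp3, Mmp11 and Mmp23 were lost. The median log2 fold change of the tested members was 0.96 in MCD livers, 0.11 at 4 weeks and 1.25 at 10 weeks, beside medians of 0.07, 0.01 and 0.05 over all genes tested. Without replicate 5 of the 10-week STAM livers, 23 members were called higher and 3 lower at 10 weeks. Without replicate 1 of the 4-week Ctrl livers, 7 were called higher and 1 lower at 4 weeks. Leaving it out also turned the sign of 4-week log2 fold changes that were not called either way, to -0.05 for Adamts12, -0.07 for Adamts15, -0.02 for Adamts4, -0.33 for Adamts9, -0.10 for Adamtsl5, -0.01 for Mmp2, -0.08 for Timp2 and 0.30 for Mmp21. Without CD replicate 1, 19 members were called higher and 1 lower in MCD livers, with Adamts6, Adamts17 and Mmp19 lost and Adamts4, Adamts5, Adamts9 and Mmp11 gained (adjusted p = 0.0498, 0.0456, 0.0284 and 0.0394, limma). Without CD replicate 4, 17 were called higher and 2 lower, with Adamts17 and Mmp23 lost and Adamts3 and Adamts4 gained (adjusted p = 0.0128 and 0.0284). Without 4-week STAM replicate 3 the counts at 4 weeks were 6 higher and 1 lower.

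Members whose groups did not overlap were counted as well. In the MCD comparison all 4 MCD values lay above all 4 CD values for 18 tested members and below them for 2, where 20.9% and 19.2% of all genes were so separated. At 4 weeks 5 members were separated upward and 1 downward in STAM livers, where the shares of all genes were 6.38% and 3.67%. At 10 weeks 19 were separated upward and 3 downward, where the shares were 16.8% and 16.3%. The 4 members Mmp13, Mmp24, Mmp27 and Timp1 were called higher in all 3 comparisons, and Adamts7 was called lower in all 3. The share of all genes called in 1 direction in all 3 was not counted, so these counts have no background beside them. No member was called in opposite directions in different comparisons.

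**Figure D2:**
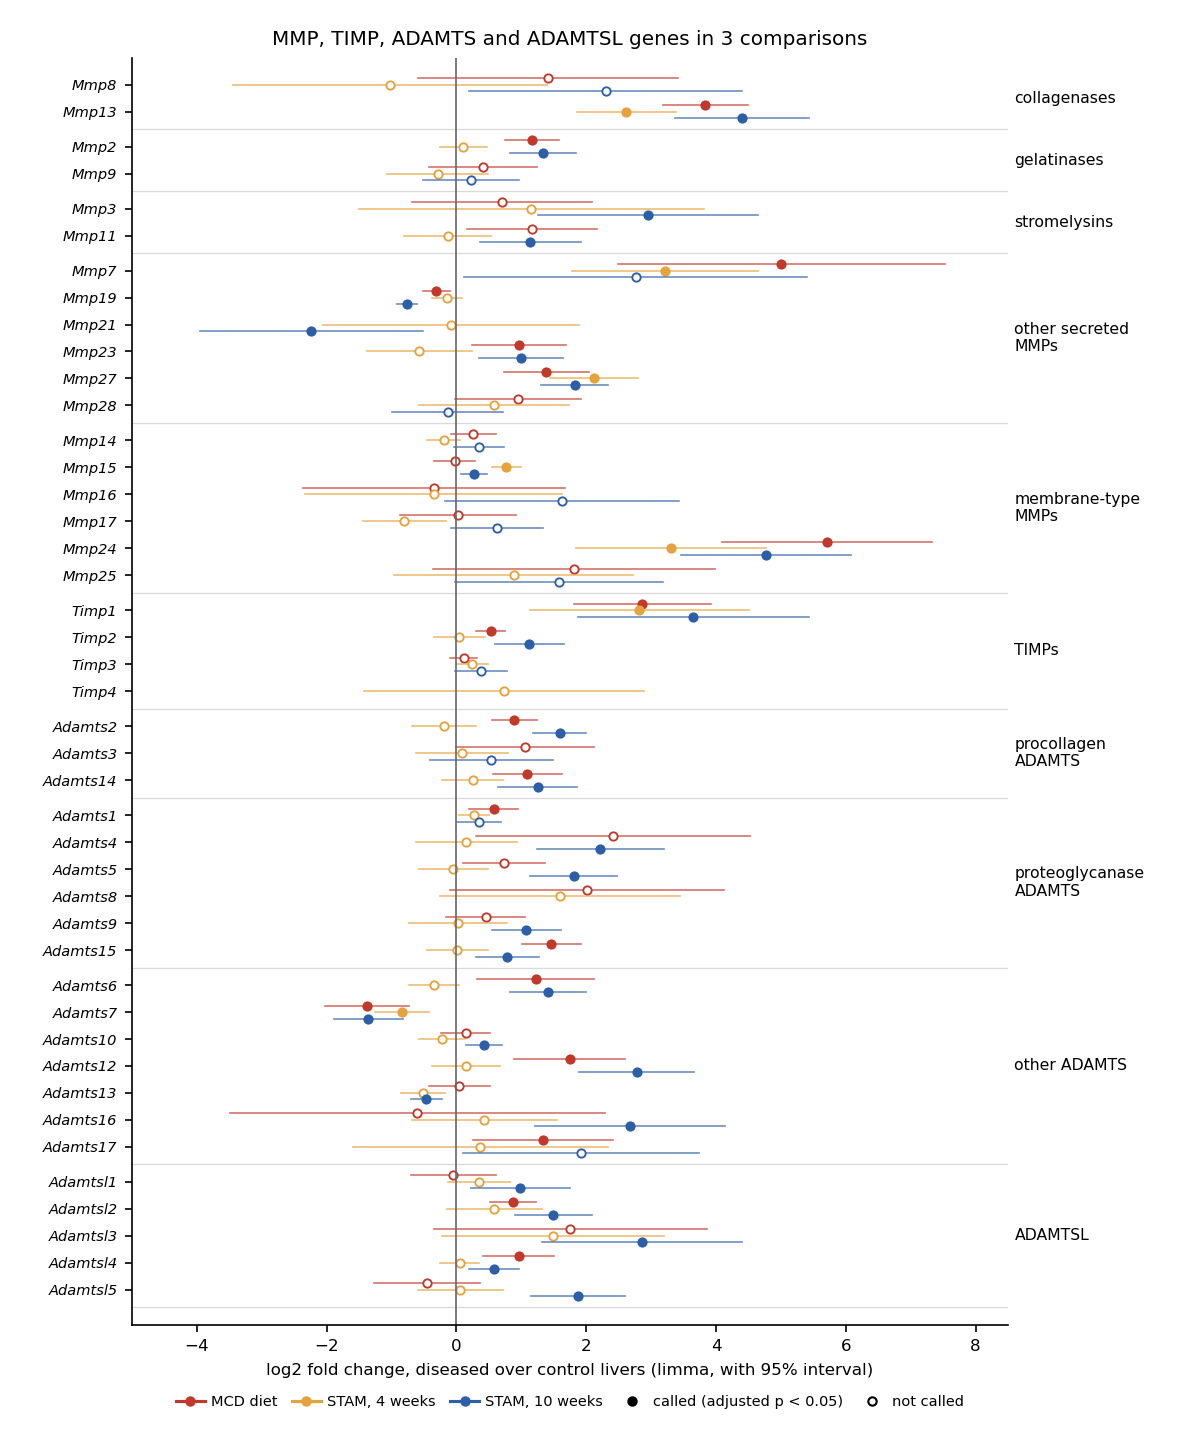
Log2 fold change of each tested member on the horizontal axis with its 95% interval, by class, in red for MCD over CD, yellow for 4-week STAM over Ctrl and blue for 10-week STAM over Ctrl, with called values filled. Filled red and blue points lie mostly to the right of 0, and few yellow points are filled, among them Mmp13 at 2.62.

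Among the collagenases, which make the first cut in fibrillar collagen, Mmp13 rose in both models and at both ages. Mmp13, the main interstitial collagenase of rodents (NM_008607, chromosome 9, 7272514 to 7283333, plus strand), was at 6.53, 6.8, 8.1 and 3.21 CPM in the 4 MCD livers, against 0.457, 0.31, 0.441 and 0.401 CPM in the 4 CD livers (log2 fold change 3.83 ± 0.30 SE, adjusted p = 1.19e-06). At 4 weeks it was at 1.12, 1.6, 1.95, 2.4 and 2.02 CPM in the 5 STAM livers, against 0.322, 0.358, 0.115, 0.292 and 0.40 CPM in the 5 Ctrl livers (log2 fold change 2.62 ± 0.35 SE, adjusted p = 0.000598). At 10 weeks it was at 1.87, 4.55, 2.29, 3.71 and 7.08 CPM in the 5 STAM livers, against 0.066, 0.437, 0.144, 0.0938 and 0.203 CPM in the 5 Ctrl livers (log2 fold change 4.40 ± 0.48 SE, adjusted p = 1.27e-05). The groups did not overlap in any of the 3 comparisons, and replicate 4 was the lowest of the MCD livers. Mmp8, the collagenase of neutrophils, averaged 0.279 ± 0.156 CPM in MCD livers and 0.139 ± 0.10 CPM in CD livers (SD, n = 4 each), with log2 fold changes of 1.41, -1.02 and 2.30 in the MCD, 4-week and 10-week comparison and adjusted p-values of 0.237, 0.649 and 0.0671 (limma). It was called in none. Summed over the neutrophil marker list, the level was 14.9 to 25.9 CPM in MCD livers against 4.4 to 13.0 CPM in CD livers, and 9.3 to 20.5 CPM in 10-week STAM livers against 4.6 to 9.2 CPM in 10-week Ctrl livers. Mmp1a and Mmp1b, the mouse relatives of human interstitial collagenase, had no reads in any library.

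The stromelysins, which cut many non-collagen matrix proteins, were called higher at 10 weeks. The difference of the STAM effect between ages was not called for Mmp3 (adjusted p = 0.43) or Mmp11 (adjusted p = 0.0626, limma). Mmp3, stromelysin-1 (NM_010809, chromosome 9, 7445822 to 7455974, plus strand), was low throughout. The 10-week values were 0.0373, 0.182, 0.104, 0.297 and 0.171 CPM in the 5 STAM livers, against 0, 0.0971, 0, 0 and 0 CPM in the 5 Ctrl livers (log2 fold change 2.96 ± 0.79 SE, adjusted p = 0.00746). STAM replicate 1 lay below the 1 Ctrl library that had Mmp3 reads, and the other 4 Ctrl libraries had none. In the MCD comparison its values were 0.315, 0.242, 0.445 and 0.283 CPM in the 4 MCD livers, against 0.102, 0.258, 0.662 and 0.0668 CPM in the 4 CD livers (log2 fold change 0.70, adjusted p = 0.403, limma). At 4 weeks they were 0.0534, 0.155, 0, 0 and 0.336 CPM in the 5 STAM livers, against 0, 0, 0.401, 0 and 0 CPM in the 5 Ctrl livers, where the 1 Ctrl library with reads was the highest of all 10. At 10 weeks Mmp11, stromelysin-3, an enzyme studied in connective tissue around tumors, was at 0.709, 1.05, 0.573, 1.14 and 1.28 CPM in the 5 STAM livers, against 0.264, 0.826, 0.335, 0.422 and 0.355 CPM in the 5 Ctrl livers (log2 fold change 1.14 ± 0.36 SE, adjusted p = 0.0186). These groups overlapped. The MCD comparison gave 1.06, 0.725, 0.934 and 0.786 CPM in the 4 MCD livers, against 0.61, 0.568, 0.441 and 0.134 CPM in the 4 CD livers (adjusted p = 0.0574, limma), and 4 weeks gave 0.801, 0.878, 0.798, 1.13 and 0.72 CPM in the 5 STAM livers, against 0.516, 1.07, 1.55, 0.681 and 1.26 CPM in the 5 Ctrl livers (adjusted p = 0.849, limma). Mmp11 shares 155 exon bases with Chchd10 on the opposite strand (GENCODE vM21). Chchd10 itself had a log2 fold change of 1.98 in MCD livers, -0.08 at 4 weeks and -0.10 at 10 weeks. Whether the authors' counting used strand is not stated by the sources used here. Mmp10, stromelysin-2, was not tested in any comparison.

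Of the gelatinases, which cut denatured collagen and basement membrane collagen, Mmp2 rose in MCD and 10-week STAM livers and Mmp9 was called in no comparison. Mmp2, gelatinase A (NM_008610, chromosome 8, 92827328 to 92853420, plus strand), was at 8.3, 7.53, 7.87 and 5.41 CPM in the 4 MCD livers, against 2.95, 2.64, 4.08 and 3.27 CPM in the 4 CD livers (log2 fold change 1.17 ± 0.19 SE, adjusted p = 0.000397). At 10 weeks its levels were 4.67, 7.09, 5.11, 9.85 and 11.7 CPM in the 5 STAM livers, against 2.77, 3.11, 3.54, 2.63 and 2.39 CPM in the 5 Ctrl livers (log2 fold change 1.33 ± 0.24 SE, adjusted p = 0.000524). In both, the lowest MCD or STAM value lay above the highest CD or Ctrl value. At 4 weeks the values were 15.4, 16.1, 11.7, 18.8 and 17.2 CPM in the 5 STAM livers, against 10.5, 16.6, 18.4, 12.3 and 16.4 CPM in the 5 Ctrl livers (log2 fold change 0.11, adjusted p = 0.765, limma), and both groups were above those of the 10-week Ctrl livers on the scaling of their own tables. Mmp9, gelatinase B, averaged 0.985 ± 0.27 CPM in MCD livers and 0.781 ± 0.31 CPM in CD livers (SD, n = 4 each), 1.34 ± 0.715 CPM in 4-week STAM livers and 1.55 ± 0.534 CPM in 4-week Ctrl livers (SD, n = 5 each), and 1.07 ± 0.404 CPM in 10-week STAM livers and 0.902 ± 0.308 CPM in 10-week Ctrl livers (SD, n = 5 each). The stellate cell and fibroblast marker list had a summed level of 619.8 to 790.4 CPM in MCD livers against 424.7 to 460.2 CPM in CD livers. The 10-week sums were 414.0 to 718.8 CPM in STAM livers against 321.1 to 451.9 CPM in Ctrl livers, with replicate 5 the highest. The part of these marker levels in the results for Mmp2 and the other members was not tested.

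Mmp7 and Mmp27, at one side of the cluster, were both called higher in MCD livers and at 4 weeks. Mmp7, matrilysin, a small MMP made mainly by epithelial cells (NM_010810, chromosome 9, 7692111 to 7699416, plus strand), was at 1.22, 7.45, 2.05 and 4.09 CPM in the 4 MCD livers, against 0.0508, 0.155, 0.607 and 0 CPM in the 4 CD livers (log2 fold change 5.01 ± 1.12 SE, adjusted p = 0.00582). The 4-week values were 0.16, 0.206, 0.177, 0.094 and 0.192 CPM in the 5 STAM livers, against 0.0645, 0, 0, 0 and 0 CPM in the 5 Ctrl livers (log2 fold change 3.22 ± 0.66 SE, adjusted p = 0.00857). The groups did not overlap, but the 4-week levels rest on 17 reads in STAM and 1 read in Ctrl livers, a ratio of 14.5 with an exact 95% counting interval of 2.28 to 607. At 10 weeks the values were 0.336, 0, 0.209, 0.544 and 2.22 CPM in the 5 STAM livers, against 0, 0.0486, 0.0479, 0.141 and 0 CPM in the 5 Ctrl livers (log2 fold change 2.76 ± 1.22 SE, adjusted p = 0.0794), and the difference was not called. Without STAM replicate 5 it was 1.98 (adjusted p = 0.178, limma). STAM replicate 2 had no Mmp7 reads at this age and replicate 5 had the most. The cholangiocyte marker list had a summed level of 135.8, 223.0, 147.8 and 150.8 CPM in the 4 MCD livers, against 103.1, 99.9, 119.8 and 106.8 CPM in the 4 CD livers. At 4 weeks the sums were 140.0, 127.1, 125.3, 159.3 and 153.5 CPM in the 5 STAM livers and 51.4 to 91.2 CPM in the Ctrl livers. The 10-week sums were 124.4, 94.1, 137.6, 185.1 and 378.6 CPM in the 5 STAM livers and 47.3 to 68.8 CPM in the Ctrl livers. MCD replicate 2 and 10-week STAM replicate 5 were the highest of their groups for both this list and Mmp7. By contrast, 4-week STAM replicate 4 had the highest sum of its group and the lowest Mmp7 level. The part of these markers in the Mmp7 result was not tested. Mmp7 shares 123 exon bases with the antisense gene AV064505.

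Mmp27 (NM_001310717, chromosome 9, 7571396 to 7581885, plus strand) was called higher in all 3 comparisons. In the MCD comparison it was at 2.4, 2.9, 2.49 and 3.49 CPM in the 4 MCD livers, against 1.32, 0.62, 1.66 and 0.935 CPM in the 4 CD livers (log2 fold change 1.38 ± 0.30 SE, adjusted p = 0.00261). At 4 weeks it was at 2.08, 1.55, 2.4, 2.54 and 2.74 CPM in the 5 STAM livers, against 0.709, 0.477, 0.229, 0.632 and 0.629 CPM in the 5 Ctrl livers (log2 fold change 2.12 ± 0.31 SE, adjusted p = 0.00109), and the 10-week levels were 1.83, 2.68, 2.24, 2.18 and 3.29 CPM in the 5 STAM livers, against 0.726, 0.534, 0.909, 0.751 and 0.508 CPM in the 5 Ctrl livers (log2 fold change 1.82 ± 0.24 SE, adjusted p = 5.65e-05). No CD or Ctrl library reached the lowest MCD or STAM library of its comparison.

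Mmp19, a secreted MMP and the most abundant member in every group, fell in MCD livers and in 10-week STAM livers. It averaged 105 ± 5.42 CPM in MCD livers and 130.2 ± 13.6 CPM in CD livers (SD, n = 4 each, log2 fold change -0.31 ± 0.10 SE, adjusted p = 0.0236). This call was lost in 6 alternatives, namely scaling by total reads (where the log2 fold change was 0.12), quantile normalization, the replicate block, and leaving out CD replicate 1, CD replicate 3 or MCD replicate 2, with adjusted p-values up to 0.59 (limma). In the 10-week comparison it was at 82.4, 80.7, 80.8, 71.6 and 84.2 CPM in the 5 STAM livers, against 152, 127, 121, 135 and 144 CPM in the 5 Ctrl livers (log2 fold change -0.76 ± 0.07 SE, adjusted p = 4.84e-06). All 5 STAM livers were below all 5 Ctrl livers, and the call held in every alternative run. At 4 weeks it averaged 113 ± 17.0 CPM in 4-week STAM livers and 125 ± 14.8 CPM in 4-week Ctrl livers (SD, n = 5 each, adjusted p = 0.454, limma). Mmp19 shares 789 exon bases with Tmem198b on the opposite strand, whose own log2 fold change was -0.44 in MCD livers and 0.38 at 10 weeks. Mmp23, a short membrane-anchored MMP, rose in MCD livers (log2 fold change 0.97, adjusted p = 0.0336, limma) and at 10 weeks (0.99, adjusted p = 0.0149), with 1.45 ± 0.643 CPM in 10-week STAM livers and 0.675 ± 0.0844 CPM in 10-week Ctrl livers (SD, n = 5 each). Its MCD call was lost in 5 alternatives (quantile normalization, or without CD replicate 2, CD replicate 4, MCD replicate 1 or MCD replicate 3), with adjusted p-values up to 0.491 (limma), and its 10-week call under quantile normalization (adjusted p = 0.671). Mmp21, an MMP linked to left-right body asymmetry, had no reads in the STAM livers at 10 weeks and 6 reads over the 5 Ctrl livers, at 0 CPM in each of the 5 STAM livers, against 0.198, 0.0486, 0, 0.0469 and 0.0508 CPM in the 5 Ctrl livers. It was called lower there (adjusted p = 0.0337), and that call was lost without STAM replicate 5 (adjusted p = 0.0526) and in 10 other alternatives. It had 1 read in the MCD and CD livers together and 4 at 4 weeks, 2 of them in STAM and 2 in Ctrl livers. Mmp28, epilysin, was called in no comparison, with log2 fold changes of 0.96, 0.58 and -0.13.

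Membrane-type MMPs stay anchored to the cell surface. Of the 6, 1 was called higher in MCD livers (16.7%, where 22.6% of all genes were), 2 at 4 weeks (33.3%, where 6.52% were) and 2 at 10 weeks (33.3%, where 25.3% were), and the 2 were Mmp24 and Mmp15. Mmp24 (NM_010808, chromosome 2, 155775344 to 155818366, plus strand), a transmembrane MMP known mainly from neurons, had the largest log2 fold change of the tested members in each of the 3 comparisons. It was at 1.02, 1.49, 0.311 and 1.35 CPM in the 4 MCD livers, against 0.0508, 0, 0 and 0 CPM in the 4 CD livers (log2 fold change 5.71 ± 0.75 SE, adjusted p = 6.49e-05). The 4-week values were 0.374, 0.31, 0.222, 0.188 and 0.192 CPM in the 5 STAM livers, against 0.0645, 0.0596, 0, 0 and 0 CPM in the 5 Ctrl livers (log2 fold change 3.31 ± 0.68 SE, adjusted p = 0.00846). Its 10-week levels were 0.112, 0.364, 0.209, 0.396 and 0.853 CPM in the 5 STAM livers, against 0 CPM in each of the 5 Ctrl livers (log2 fold change 4.77 ± 0.61 SE, adjusted p = 4.23e-05). Every MCD and STAM library had Mmp24 reads, and 3 of 4 CD, 3 of 5 4-week Ctrl and 5 of 5 10-week Ctrl libraries had none. Summed reads were 113 in MCD and 1 in CD livers, a ratio of 78.0 with an exact 95% counting interval of 13.7 to 3106. They were 26 in STAM and 2 in Ctrl livers at 4 weeks, a ratio of 11.1 (2.78 to 96.6). At 10 weeks 43 reads in STAM livers stood against 0 in Ctrl livers, at least 12.5-fold higher when 3 reads over the Ctrl group are taken as the floor. Mmp24 shares 637 exon bases with BC029722 on the opposite strand, which was not analysed here.

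Mmp15, a transmembrane MMP, rose at 4 weeks, with 63.0, 52.1, 62.8, 53.3 and 58.4 CPM in the 5 STAM livers, against 30.5, 41.5, 29.5, 37.2 and 32.0 CPM in the 5 Ctrl livers (log2 fold change 0.77 ± 0.10 SE, adjusted p = 0.000489). These 4-week groups did not overlap. At 10 weeks it averaged 67.7 ± 6.41 CPM in 10-week STAM livers and 56.2 ± 7.11 CPM in 10-week Ctrl livers (SD, n = 5 each, log2 fold change 0.27 ± 0.09 SE, adjusted p = 0.0237), a call that was lost in 4 alternatives, among them without STAM replicate 5 (0.22, adjusted p = 0.0584). In the MCD comparison it averaged 41.1 ± 8.12 CPM in MCD livers and 41.3 ± 3.63 CPM in CD livers (SD, n = 4 each) and was not called, and scaling by total reads turned its log2 fold change of -0.03 into 0.40. Mmp14, the membrane-type MMP that activates pro-MMP2 together with TIMP2, averaged 44.2 ± 7.13 CPM in MCD livers and 37.2 ± 8.41 CPM in CD livers (SD, n = 4 each), 45.8 ± 5.89 CPM in 4-week STAM livers and 52.8 ± 8.45 CPM in 4-week Ctrl livers (SD, n = 5 each), and 43.9 ± 11.1 CPM in 10-week STAM livers and 34.3 ± 6.49 CPM in 10-week Ctrl livers (SD, n = 5 each). None of these differences was called, with adjusted p-values of 0.209, 0.344 and 0.126 (limma). Mmp16 and the lipid-anchored Mmp17 and Mmp25 were called in no comparison, and none of their group means exceeded 1.31 CPM.

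Among the 4 TIMPs, Timp1 rose in all 3 comparisons, Timp2 rose in 2, and neither Timp3 nor Timp4 was called. Timp1 (NM_001294280, chromosome X, 20870166 to 20874737, plus strand) is the inducible inhibitor often measured in liver fibrosis. It was at 0.983, 1.13, 1.33 and 1.76 CPM in the 4 MCD livers, against 0.406, 0.155, 0.166 and 0.0668 CPM in the 4 CD livers (log2 fold change 2.86 ± 0.49 SE, adjusted p = 0.000489). At 4 weeks it was at 0.48, 0.981, 0.177, 1.13 and 1.25 CPM in the 5 STAM livers, against 0.129, 0.238, 0.115, 0 and 0.114 CPM in the 5 Ctrl livers (log2 fold change 2.82 ± 0.78 SE, adjusted p = 0.0383). At 10 weeks it was at 0.485, 2.73, 0.678, 1.34 and 1.32 CPM in the 5 STAM livers, against 0.132, 0.0486, 0.479, 0.0938 and 0 CPM in the 5 Ctrl livers (log2 fold change 3.65 ± 0.82 SE, adjusted p = 0.00297). The groups were separate in the MCD and 10-week comparison. They overlapped at 4 weeks, where the call was lost in 8 alternatives, with adjusted p-values up to 0.095 (limma).

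Timp2 (NM_011594, chromosome 11, 118301061 to 118355411, minus strand), which both inhibits MMPs and takes part in pro-MMP2 activation, rose in MCD livers and at 10 weeks. It was at 31.2, 31.0, 29.5 and 28.3 CPM in the 4 MCD livers, against 20.2, 19.0, 24.0 and 20.4 CPM in the 4 CD livers (log2 fold change 0.53 ± 0.10 SE, adjusted p = 0.00141). The 10-week values were 22.5, 31.6, 26.4, 42.2 and 59.1 CPM in the 5 STAM livers, against 17.3, 19.4, 15.7, 13.5 and 13.5 CPM in the 5 Ctrl livers (log2 fold change 1.12 ± 0.24 SE, adjusted p = 0.00342). Both pairs of groups were separate, and without replicate 5 of the STAM livers the 10-week log2 fold change was 0.92, adjusted p = 0.00137. At 4 weeks the values were 22.9, 26.1, 16.5, 23.5 and 26.9 CPM in the 5 STAM livers, against 15.7, 24.9, 26.7, 18.2 and 28.0 CPM in the 5 Ctrl livers (log2 fold change 0.05, adjusted p = 0.917, limma). Timp3, an inhibitor that binds to the matrix and also blocks ADAM and ADAMTS enzymes, was at 53.1, 58.2, 48.5 and 50.4 CPM in the 4 MCD livers, against 43.5, 48.1, 50.6 and 52.1 CPM in the 4 CD livers (log2 fold change 0.11, adjusted p = 0.375, limma). The 4-week values were 45.4, 49.6, 41.4, 47.1 and 46.7 CPM in the 5 STAM livers, against 50.7, 33.1, 42.6, 32.4 and 37.9 CPM in the 5 Ctrl livers (0.24, adjusted p = 0.212), and the 10-week levels were 63.6, 70.6, 56.2, 78.6 and 96.2 CPM in the 5 STAM livers, against 35.7, 64.2, 56.8, 60.1 and 64.9 CPM in the 5 Ctrl livers (0.38, adjusted p = 0.108). It was called in none, but without replicate 1 of the 4-week Ctrl livers it was called higher at 4 weeks (0.34, adjusted p = 0.0256, limma). Timp3 shares 1733 exon bases with Syn3 on the opposite strand, a gene at 0.667 to 1.05 CPM in MCD livers and 1.66 to 2.07 CPM in CD livers. Timp4 had no reads in the MCD, CD and 10-week livers, and at 4 weeks it was at 0, 0.103, 0.0444, 0 and 0.048 CPM in the 5 STAM livers, against 0, 0, 0.172, 0 and 0 CPM in the 5 Ctrl livers, with no call.

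**Figure D3:**
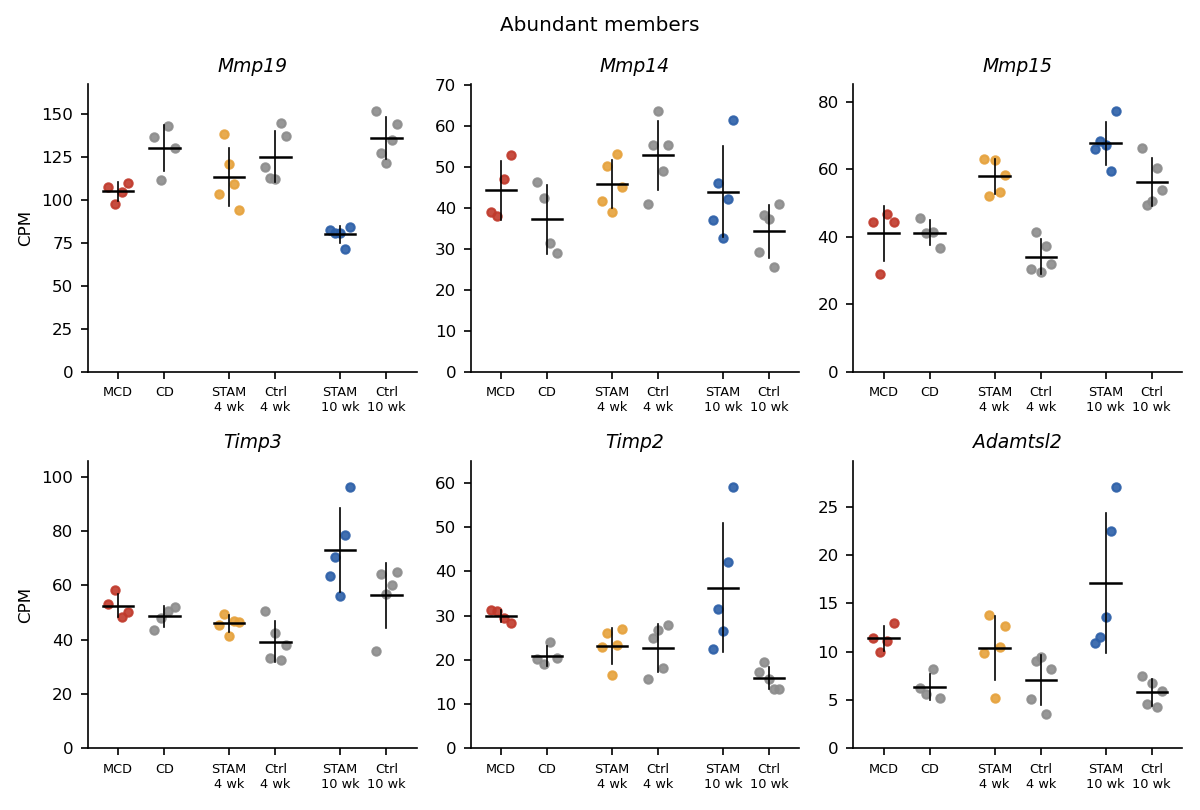
Levels in CPM of Mmp19, Mmp14, Mmp15, Timp3, Timp2 and Adamtsl2, with a dot for each library, a line for the group mean and a bar for 1 SD. All 10-week STAM livers lie below the 10-week Ctrl livers for Mmp19 and above them for Timp2.

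Of the 3 procollagen N-proteinases, which remove the amino-terminal propeptide of fibrillar collagens, Adamts2 and Adamts14 rose in MCD livers and at 10 weeks and Adamts3 was called in no comparison. Adamts2 (NM_175643, chromosome 11, 50602085 to 50807573, plus strand) was at 7.55, 7.89, 8.41 and 9.08 CPM in the 4 MCD livers, against 4.93, 3.46, 4.86 and 4.61 CPM in the 4 CD livers (log2 fold change 0.89 ± 0.16 SE, adjusted p = 0.00067). At 10 weeks its levels were 7.88, 11.7, 8.03, 14.4 and 14.3 CPM in the 5 STAM livers, against 4.22, 3.3, 4.35, 3.1 and 3.25 CPM in the 5 Ctrl livers (log2 fold change 1.59 ± 0.19 SE, adjusted p = 2.63e-05). In both, the groups were separate. The 4-week values were 15.8, 15.5, 11.8, 16.7 and 20.4 CPM in the 5 STAM livers, against 12.1, 20.3, 28.3, 13.4 and 20.9 CPM in the 5 Ctrl livers (adjusted p = 0.672, limma). Adamts14 was at 3.26, 2.21, 2.09 and 3.9 CPM in the 4 MCD livers, against 1.47, 1.19, 1.32 and 1.2 CPM in the 4 CD livers (log2 fold change 1.09 ± 0.25 SE, adjusted p = 0.0034). In the 10-week comparison it was at 3.92, 4.82, 2.71, 5.39 and 9.73 CPM in the 5 STAM livers, against 2.44, 2.23, 2.11, 1.45 and 2.08 CPM in the 5 Ctrl livers (log2 fold change 1.25 ± 0.28 SE, adjusted p = 0.0026). The 10-week log2 fold change was 0.999 (adjusted p = 0.00324, limma) without STAM replicate 5, which held the highest value. At 4 weeks its values were 3.74, 3.51, 2.79, 5.12 and 4.46 CPM in the 5 STAM livers, against 3.09, 4.35, 4.24, 2.24 and 2.74 CPM in the 5 Ctrl livers (adjusted p = 0.547, limma). Adamts3 had log2 fold changes of 1.05, 0.08 and 0.54, with adjusted p-values of 0.103, 0.923 and 0.328 (limma).

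The proteoglycanases of the ADAMTS family cut versican and aggrecan, large proteoglycans of loose matrix and cartilage. At 10 weeks 4 of the 5 tested rose in STAM livers, in MCD livers 2 of 6 rose, and at 4 weeks none of 6 was called. Of all genes tested, 25.3%, 22.6% and 6.52% were called higher in these comparisons. With so few genes, the MCD and 4-week counts do not stand apart from those shares. At 10 weeks Adamts4 (NM_172845, chromosome 1, 171250422 to 171259922, plus strand) was at 1.27, 2.14, 0.678, 1.43 and 4.65 CPM in the 5 STAM livers, against 0.462, 0.486, 0.287, 0.188 and 0.406 CPM in the 5 Ctrl livers (log2 fold change 2.22 ± 0.45 SE, adjusted p = 0.00141). The MCD comparison gave 0.472, 0.846, 0.623 and 1.01 CPM in the 4 MCD livers, against 0.305, 0.31, 0.276 and 0 CPM in the 4 CD livers (log2 fold change 2.41 ± 0.96 SE, adjusted p = 0.0634), and the 4-week levels were 1.33, 0.671, 1.29, 2.21 and 1.97 CPM in the 5 STAM livers, against 0.774, 1.31, 2.41, 1.17 and 1.03 CPM in the 5 Ctrl livers (adjusted p = 0.854). The 10-week groups were separate. Adamts5 (NM_011782, chromosome 16, 85858157 to 85901125, minus strand), the main aggrecanase of mouse cartilage, was at 10 weeks at 3.4, 4.86, 4.54, 6.83 and 10.8 CPM in the 5 STAM livers, against 0.99, 2.38, 1.77, 2.02 and 1.22 CPM in the 5 Ctrl livers (log2 fold change 1.81 ± 0.31 SE, adjusted p = 0.000476). In the MCD comparison it was at 7.35, 4.07, 5.43 and 3.24 CPM in the 4 MCD livers, against 3.76, 1.81, 3.7 and 2.74 CPM in the 4 CD livers (log2 fold change 0.73 ± 0.29 SE, adjusted p = 0.0585), which was not called. At 4 weeks it was at 7.42, 5.68, 5.77, 6.63 and 7.49 CPM in the 5 STAM livers, against 3.55, 8.94, 7.97, 5.64 and 9.95 CPM in the 5 Ctrl livers (adjusted p = 0.94, limma). The 10-week groups of Adamts5 were separate, and those of the other 2 comparisons overlapped.

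Adamts9, which cuts versican, was at 10 weeks at 3.06, 4.41, 2.97, 4.8 and 7.13 CPM in the 5 STAM livers, against 2.84, 1.7, 2.25, 1.5 and 1.98 CPM in the 5 Ctrl livers (log2 fold change 1.08 ± 0.25 SE, adjusted p = 0.00312). The MCD comparison gave 4.25, 3.99, 3.25 and 3.77 CPM in the 4 MCD livers, against 4.93, 2.43, 2.98 and 1.67 CPM in the 4 CD livers (adjusted p = 0.216), and the 4-week levels were 7.42, 6.71, 8.47, 8.88 and 8.83 CPM in the 5 STAM livers, against 2.9, 11.1, 9.98, 7.92 and 11.9 CPM in the 5 Ctrl livers (adjusted p = 0.979). The 10-week groups were separate and the other 2 pairs overlapped. Adamts15, another enzyme that cuts versican, was in the MCD comparison at 3.58, 4.51, 4.27 and 4.4 CPM in the 4 MCD livers, against 2.03, 1.24, 1.54 and 1.34 CPM in the 4 CD livers (log2 fold change 1.46 ± 0.21 SE, adjusted p = 0.000141). Its 10-week levels were 3.77, 2.86, 2.24, 3.61 and 3.93 CPM in the 5 STAM livers, against 1.52, 2.62, 1.72, 1.36 and 2.39 CPM in the 5 Ctrl livers (log2 fold change 0.79 ± 0.23 SE, adjusted p = 0.0117), with overlapping groups, and the 4-week levels were 2.46, 3.67, 2.66, 3.15 and 2.5 CPM in the 5 STAM livers, against 2.26, 3.22, 4.42, 2.82 and 2.0 CPM in the 5 Ctrl livers (adjusted p = 0.984). Adamts1, an enzyme induced at ovulation and in inflammation, was called in MCD livers, with 28.7 ± 6.12 CPM in MCD livers and 19.3 ± 4.21 CPM in CD livers (SD, n = 4 each, log2 fold change 0.58 ± 0.17 SE, adjusted p = 0.0176). The call was lost without MCD replicate 2 (adjusted p = 0.0573, limma). At 10 weeks it had a log2 fold change of 0.35 (adjusted p = 0.0848, limma), and the difference between the MCD and 10-week effects was 0.23 ± 0.25, adjusted p = 0.557. Adamts8 had at most 0.0614 CPM as a group mean and was called in neither comparison in which it was tested.

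Among the other ADAMTS enzymes Adamts12 had the largest rise, and Adamts7, its closest relative, was the one member called lower in all 3 comparisons. Both are known to cut cartilage oligomeric matrix protein. Adamts12 (NM_175501, chromosome 15, 11064790 to 11346867, plus strand) was at 1.3, 1.01, 1.25 and 1.23 CPM in the 4 MCD livers, against 0.508, 0.155, 0.386 and 0.467 CPM in the 4 CD livers (log2 fold change 1.74 ± 0.39 SE, adjusted p = 0.00324). At 10 weeks it was at 1.61, 2.82, 0.99, 1.63 and 2.86 CPM in the 5 STAM livers, against 0.396, 0.34, 0.0957, 0.281 and 0.305 CPM in the 5 Ctrl livers (log2 fold change 2.78 ± 0.41 SE, adjusted p = 0.000133). Both pairs of groups were separate. The 4-week values were 3.74, 3.56, 2.04, 3.76 and 3.89 CPM in the 5 STAM livers, against 1.74, 3.46, 3.61, 3.01 and 3.72 CPM in the 5 Ctrl livers (log2 fold change 0.14 ± 0.24 SE, adjusted p = 0.792), and all 10 values lay above every CD value and every 10-week Ctrl value, each on the scaling of its own table.

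Adamts7 (NM_001003911, chromosome 9, 90162978 to 90200102, plus strand) was at 5.5, 3.18, 7.87 and 6.06 CPM in the 4 MCD livers, against 14.7, 19.3, 15.8 and 8.54 CPM in the 4 CD livers (log2 fold change -1.38 ± 0.29 SE, adjusted p = 0.00312). At 4 weeks it was at 13.8, 20.5, 18.1, 18.4 and 12.8 CPM in the 5 STAM livers, against 43.8, 24.8, 34.6, 24.0 and 24.5 CPM in the 5 Ctrl livers (log2 fold change -0.84 ± 0.19 SE, adjusted p = 0.0166), and the 10-week levels were 10.5, 8.05, 7.45, 5.05 and 9.39 CPM in the 5 STAM livers, against 12.7, 20.5, 18.4, 21.8 and 31.6 CPM in the 5 Ctrl livers (log2 fold change -1.36 ± 0.24 SE, adjusted p = 0.000953). All 3 pairs of groups were separate. Adamts7 shares 122 exon bases with Tbc1d2b on the opposite strand, whose log2 fold changes were -0.81, -0.18 and -0.41. The hepatocyte marker list also fell, with 7 of its 10 genes called lower in MCD livers, 3 at 4 weeks and 8 at 10 weeks and none called higher. Of all genes tested, 20.1%, 3.27% and 22.5% were called lower in these comparisons. The part of Tbc1d2b reads and of hepatocyte markers in the Adamts7 result was not tested.

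Adamts6, a close relative of Adamts10, was at 1.53, 1.77, 2.71 and 2.92 CPM in the 4 MCD livers, against 0.711, 0.62, 0.662 and 2.4 CPM in the 4 CD livers (log2 fold change 1.22 ± 0.42 SE, adjusted p = 0.0318). The 10-week values were 2.02, 1.95, 2.55, 2.28 and 2.22 CPM in the 5 STAM livers, against 1.52, 0.971, 0.718, 0.516 and 0.66 CPM in the 5 Ctrl livers (log2 fold change 1.41 ± 0.27 SE, adjusted p = 0.000918), and the 4-week levels were 2.3, 2.58, 3.33, 2.49 and 2.59 CPM in the 5 STAM livers, against 2.32, 3.52, 3.5, 3.79 and 4.0 CPM in the 5 Ctrl livers (adjusted p = 0.254). CD replicate 4 lay within the range of the MCD livers, and the 10-week groups were separate. The MCD call was lost in 6 alternatives, namely quantile normalization and leaving out CD replicate 1, 2 or 3 or MCD replicate 3 or 4, with adjusted p-values up to 0.242 (limma). At 10 weeks Adamts16 was at 0.224, 0.182, 0.313, 0.495 and 0.982 CPM in the 5 STAM livers, against 0.066, 0.0971, 0.0479, 0 and 0.102 CPM in the 5 Ctrl livers (log2 fold change 2.68 ± 0.68 SE, adjusted p = 0.0055). The MCD comparison gave 0.197, 0.121, 0.311 and 0 CPM in the 4 MCD livers, against 0.356, 0.362, 0.331 and 0 CPM in the 4 CD livers, and 4 weeks gave 0.214, 0.723, 0.177, 0.705 and 0.192 CPM in the 5 STAM livers, against 0.129, 0.238, 0.287, 0.194 and 0.457 CPM in the 5 Ctrl livers, neither called (adjusted p = 0.739 and 0.685, limma). Adamts17, linked to a Weill-Marchesani-like syndrome in humans, was called in MCD livers, at 0.354, 0.201, 0.311 and 0.189 CPM in the 4 MCD livers, against 0.102, 0.103, 0.11 and 0.0668 CPM in the 4 CD livers (log2 fold change 1.34 ± 0.50 SE, adjusted p = 0.0451). That call was lost in 11 alternatives, among them every one that left out a library. At 10 weeks its levels were 0.0747, 0.0455, 0, 0.148 and 0.0853 CPM in the 5 STAM livers, against 0, 0, 0, 0.0469 and 0 CPM in the 5 Ctrl livers (adjusted p = 0.0759), and the 4-week levels were 0.214, 0.155, 0.399, 0.141 and 0.048 CPM in the 5 STAM livers, against 0.129, 0.298, 0.631, 0.0972 and 0 CPM in the 5 Ctrl livers (adjusted p = 0.862). Adamts10, which binds fibrillin microfibrils, rose at 10 weeks, with 11.7 ± 2.19 CPM in 10-week STAM livers and 8.63 ± 1.02 CPM in 10-week Ctrl livers (SD, n = 5 each, log2 fold change 0.42 ± 0.13 SE, adjusted p = 0.0167). Adamts13, the liver-made protease that cuts von Willebrand factor, fell at 10 weeks, with 4.57 ± 0.185 CPM in 10-week STAM livers and 6.32 ± 0.588 CPM in 10-week Ctrl livers (SD, n = 5 each, log2 fold change -0.46 ± 0.11 SE, adjusted p = 0.00354). It was not called in MCD livers (0.04, adjusted p = 0.891, limma) or at 4 weeks (-0.51, adjusted p = 0.0606), and its 10-week call was lost when libraries were scaled by total reads. Vwf, its substrate, had log2 fold changes of 0.05, 0.36 and 1.63 in the MCD, 4-week and 10-week comparison, and was called higher at 10 weeks (adjusted p = 9.84e-05, limma).

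All 5 ADAMTS-like genes rose at 10 weeks, 2 of them also in MCD livers and none at 4 weeks. These were 100%, 40% and 0% of the class, where 25.3%, 22.6% and 6.52% of all genes were called higher. Adamtsl2 (NM_029981, chromosome 2, 27079381 to 27108613, plus strand), whose protein binds fibrillin-1 and a latent TGF-beta binding protein, was at 10 weeks at 10.9, 11.5, 13.6, 22.5 and 27.0 CPM in the 5 STAM livers, against 7.46, 4.57, 6.8, 4.22 and 5.94 CPM in the 5 Ctrl livers (log2 fold change 1.49 ± 0.27 SE, adjusted p = 0.000965). In the MCD comparison it was at 11.4, 9.95, 11.1 and 13.0 CPM in the 4 MCD livers, against 6.2, 5.58, 8.22 and 5.21 CPM in the 4 CD livers (log2 fold change 0.87 ± 0.16 SE, adjusted p = 0.00102), and the 4-week levels were 9.88, 13.8, 5.23, 10.5 and 12.6 CPM in the 5 STAM livers, against 5.09, 9.0, 9.41, 3.5 and 8.18 CPM in the 5 Ctrl livers (adjusted p = 0.32). Its groups were separate in the first 2 of these. At 10 weeks Adamtsl3 was at 0.373, 0.909, 0.626, 0.891 and 0.896 CPM in the 5 STAM livers, against 0.132, 0.146, 0.287, 0 and 0.102 CPM in the 5 Ctrl livers (log2 fold change 2.86 ± 0.72 SE, adjusted p = 0.00513). It was at 0.354, 0.282, 0.267 and 0.409 CPM in the 4 MCD livers, against 0.0508, 0, 0.386 and 0.334 CPM in the 4 CD livers (adjusted p = 0.162) in the MCD comparison and at 0.427, 0.361, 0.355, 0.188 and 0.192 CPM in the 5 STAM livers, against 0.0645, 0, 0.459, 0.146 and 0.172 CPM in the 5 Ctrl livers (adjusted p = 0.278) at 4 weeks, neither called. At 10 weeks Adamtsl5 was at 1.72, 2.09, 1.09, 2.08 and 3.58 CPM in the 5 STAM livers, against 0.528, 0.34, 0.526, 0.469 and 0.914 CPM in the 5 Ctrl livers (log2 fold change 1.87 ± 0.33 SE, adjusted p = 0.00053). It was at 0.629, 0.403, 0.40 and 0.597 CPM in the 4 MCD livers, against 1.17, 0.724, 0.552 and 0.467 CPM in the 4 CD livers (adjusted p = 0.355, limma) in the MCD comparison and at 1.01, 0.981, 0.931, 0.47 and 1.01 CPM in the 5 STAM livers, against 0.516, 0.834, 0.746, 0.972 and 1.14 CPM in the 5 Ctrl livers (adjusted p = 0.938) at 4 weeks. Adamtsl4, whose protein binds fibrillin-1 in the eye, rose in MCD livers (0.96, adjusted p = 0.00877, limma) and at 10 weeks (0.58, adjusted p = 0.0167). Adamtsl1 rose at 10 weeks (0.99, adjusted p = 0.034), a call lost in 7 alternatives, among them without STAM replicate 5 (0.79, adjusted p = 0.0858).

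**Figure D4:**
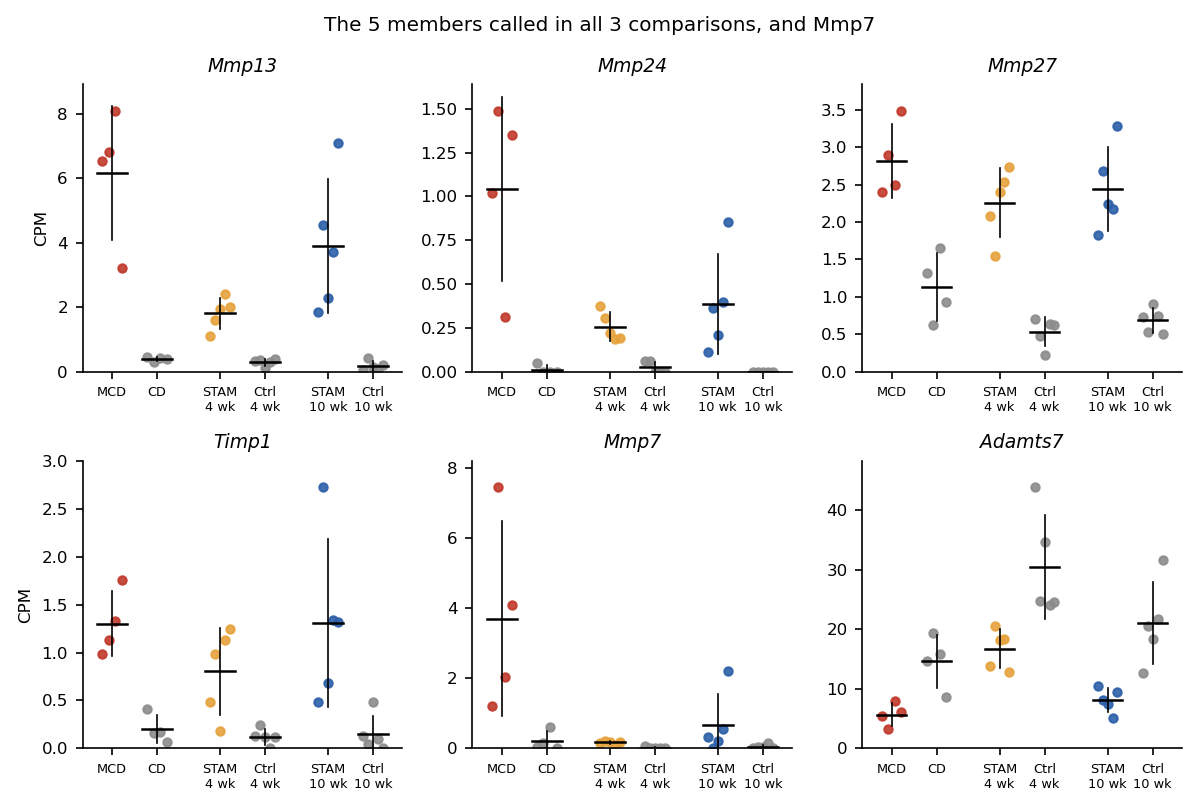
Levels in CPM of the 5 members called in all 3 comparisons, and of Mmp7, with a dot for each library, a line for the group mean and a bar for 1 SD. Mmp13, Mmp24, Mmp27 and Timp1 lie higher and Adamts7 lies lower in MCD and STAM livers than in CD and Ctrl livers.

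Whether the STAM effect differed between the ages was tested as the 10-week log2 fold change minus the 4-week one, in 1 fit over the 4 groups and 15022 genes. Of 41 tested members the difference was called positive for 12 and negative for 2, where 8.89% and 11.2% of all genes were called in those directions. Adamts12 had the largest called difference (2.64 ± 0.49, adjusted p = 0.000927), from effects of 2.78 at 10 weeks and 0.14 at 4 weeks. Other ADAMTS enzymes called positive, with the log2 difference and the adjusted p (limma), were Adamts4 (2.06, 0.0209), Adamts5 (1.85, 0.00486), Adamts2 (1.78, 0.000653), Adamts6 (1.77, 0.000841) and Adamts10 (0.64, 0.0401). The ADAMTS-like gene Adamtsl5 (1.82, 0.0081) was called as well. Among MMPs and inhibitors the positive calls were Mmp13 (1.78, 0.049), Mmp23 (1.57, 0.0282), Mmp17 (1.43, 0.0251), Mmp2 (1.22, 0.00839) and Timp2 (1.08, 0.0224). Mmp17 was called in neither age on its own, with effects of 0.63 at 10 weeks and -0.80 at 4 weeks. For all 12 positive calls the mean Ctrl level was lower at 10 than at 4 weeks, each on the scaling of its own table. The mean STAM level was also lower at 10 weeks for Adamts12, Adamts2, Adamts5, Adamts6 and Mmp2, and higher for the others. For Adamts12 the STAM means were 0.545 and 0.318 CPM per kb of gene length at 4 and 10 weeks. The Ctrl means were 0.499 and 0.0455. Levels were not tested between tables. Mmp19 (-0.61, 0.00329) and Mmp15 (-0.50, 0.0166) were called negative. For the other genes called at both ages the difference was not called, namely Mmp24 (1.46, 0.258), Timp1 (0.83, 0.673), Mmp27 (-0.30, 0.632) and Adamts7 (-0.52, 0.29). The call for Mmp13 was lost in 19 alternatives, that for Adamts10 in 11 and that for Mmp23 in 6. Quantile normalization also ended those for Adamts4, Mmp15 and Mmp17, and scaling by total reads that for Mmp15. Without replicate 5 of the 10-week STAM livers 9 were called positive and 2 negative, and Adamts10 (0.55, adjusted p = 0.0781), Mmp13 (1.53, adjusted p = 0.0972) and Mmp23 (1.35, adjusted p = 0.0565) were lost. Without replicate 1 of the 4-week Ctrl livers 14 were called positive and 2 negative, with Mmp13 lost (1.73, adjusted p = 0.0565) and Adamts9, Mmp11 and Mmp14 gained. The gained differences were 1.41 for Adamts9 (1.05 with all libraries), 1.49 for Mmp11 (1.28) and 0.63 for Mmp14 (0.54). Without replicate 3 of the 4-week STAM livers 9 were called positive and 2 negative, with Adamts10, Mmp13 and Mmp23 lost (adjusted p = 0.0758, 0.065 and 0.0568, limma). Age and the time on the high-fat diet cannot be told apart in this design.

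**Figure D5:**
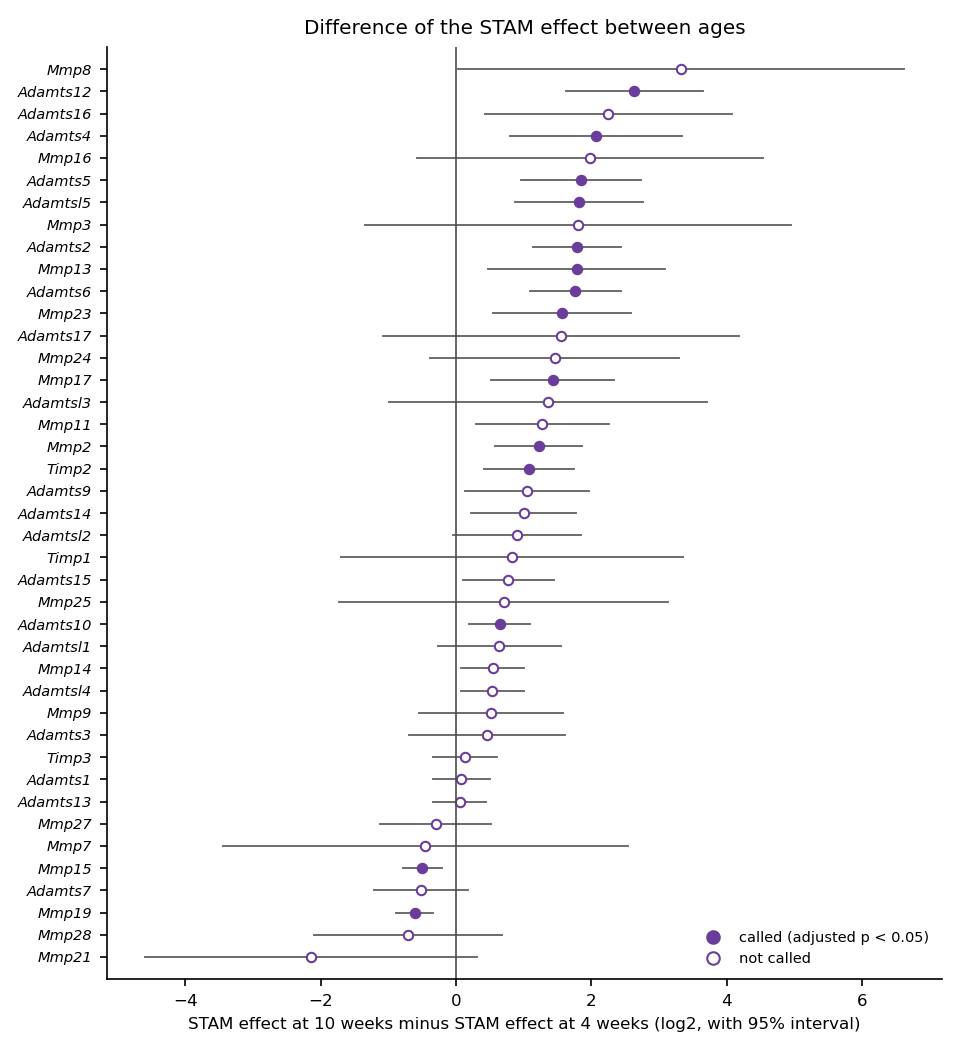
STAM effect at 10 weeks minus STAM effect at 4 weeks (log2) for each tested member, with its 95% interval and called differences filled. Filled points run from 2.64 for Adamts12 to -0.61 for Mmp19, and 12 of the 14 lie to the right of 0.

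The models were compared as the MCD effect minus the 10-week STAM effect, over 14986 genes. Of 40 tested members 1 was called positive and 1 negative, where 12.9% and 15.0% of all genes were called in those directions. Adamtsl5 was the negative call (-2.33 ± 0.50, adjusted p = 0.00163), from effects of -0.45 in MCD livers and 1.87 in 10-week STAM livers. Mmp19 was the positive call (0.45 ± 0.12, adjusted p = 0.00632), from effects of -0.31 and -0.76. Adamts2 lay just outside the threshold (-0.70 ± 0.26, adjusted p = 0.0506). Without CD replicate 1 Adamts13 was called positive as well (0.65, adjusted p = 0.0383), and without CD replicate 4 Adamts16 was called negative (-4.53, adjusted p = 0.0101, limma). The 95% intervals of the uncalled differences were often wide, from -1.88 to 0.74 for Mmp13, from -3.03 to 1.46 for Timp1 and from -1.05 to 2.94 for Mmp24. The diets, ages and control groups of the models differ as well.

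Divided by counted gene length, as mean CPM per kb, Mmp19 was the highest member in all 6 groups. Its level was 32.0 in MCD and 39.8 in CD livers, 34.6 in STAM and 38.2 in Ctrl livers at 4 weeks, and 24.4 in STAM and 41.5 in Ctrl livers at 10 weeks. That was 28.5% of the summed level of all members in MCD and 40.3% in CD livers, and 21.0% in STAM and 40.3% in Ctrl livers at 10 weeks. Mmp14 was second in every group, at 17.0 CPM per kb in MCD and 14.3 in CD livers and 16.9 in STAM and 13.2 in Ctrl livers at 10 weeks. Mmp13 was at 2.3 CPM per kb in MCD livers and 0.15 in CD livers, and Mmp7 at 4.21 and 0.231. The members with the largest fold changes were thus low in level beside Mmp19, Mmp14, Timp3, Mmp15 and Timp2.

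The other genes of the pathway were counted by list in the same fits. Of 19 tested genes of MMP activation and inhibition, 6 were called higher and 8 lower in MCD livers, 2 higher and 3 lower in STAM livers at 4 weeks, and 5 higher and 6 lower at 10 weeks. These were 31.6% and 42.1% of the list in MCD livers (22.6% and 20.1% of all genes), 10.5% and 15.8% at 4 weeks (6.52% and 3.27%), and 26.3% and 31.6% at 10 weeks (25.3% and 22.5%), so that the share called higher at 10 weeks lay near that of all genes. Plg, the precursor of plasmin, fell in all 3 comparisons (log2 fold changes -1.22, -0.34 and -0.73), and so did Reck, a membrane inhibitor of MMPs (-2.03, -0.55 and -0.41). Plau, the urokinase that activates plasminogen, rose in MCD livers (1.85, adjusted p = 5.46e-05, limma) and at 10 weeks (2.09, adjusted p = 4.84e-06), with 0.32 at 4 weeks (adjusted p = 0.494). Plat, tissue plasminogen activator, rose in MCD livers (2.83) and had the largest fold change of the list at 10 weeks (3.64), with 1.38 at 4 weeks (adjusted p = 0.0615, limma). St14, the membrane serine protease matriptase, rose in all 3 (1.46, 1.81 and 2.59). Of the ADAM and astacin proteases 4 of 15 were called higher and 3 lower in MCD livers, 3 of 15 higher and 0 lower at 4 weeks, and 6 of 14 higher and 2 lower at 10 weeks. The shares were 26.7% and 20% in MCD livers, near those of all genes, 20% higher at 4 weeks, and 42.9% and 14.3% at 10 weeks. Mep1a, a meprin subunit, was called higher in MCD livers, at 0.511 to 1.33 CPM against 0 CPM in every CD liver, and in 4-week STAM livers, at 0.047 to 0.361 CPM against 0 CPM in every Ctrl liver, and was not tested at 10 weeks. Adam8, a leukocyte ADAM, rose in all 3 (3.58, 1.05 and 1.71).

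Many substrate and partner genes rose in MCD livers and at 10 weeks. Of all genes tested, 22.6% were called higher and 20.1% lower in MCD livers. The shares were 6.52% and 3.27% at 4 weeks, and 25.3% and 22.5% at 10 weeks. Among collagen and elastin genes, the 4 called lower in MCD livers and the 1 called higher at 4 weeks lay near these shares. Of 16 collagen and elastin genes 10 were called higher and 4 lower in MCD livers, 1 higher (Col5a3) and 0 lower at 4 weeks, and 12 higher and 0 lower at 10 weeks, with median log2 fold changes of 0.88, 0.08 and 1.32. The summed level of this list went the other way in the MCD comparison, at 1761.9 to 2267.5 CPM in MCD livers against 2921.0 to 3326.7 CPM in CD livers. At 10 weeks the sums overlapped, at 2871.6 to 3286.6 CPM in STAM livers against 2256.8 to 3060.0 CPM in Ctrl livers. Fn1, which encodes fibronectin, made up much of the sum and fell in MCD livers, at 1042.5 to 1506 CPM in MCD livers against 1951 to 2213 CPM in CD livers (log2 fold change -0.73, adjusted p = 0.00069, limma). Col1a1, a chain of type I collagen, had log2 fold changes of 1.57 in MCD livers (adjusted p = 0.000195, limma), 0.46 at 4 weeks (adjusted p = 0.746) and 2.89 at 10 weeks (adjusted p = 0.00426). For Col3a1 they were 0.91, 0.08 and 2.03, the first and last called. Of 16 tested proteoglycan genes and ADAMTSL partners 11 were called higher in MCD livers, 0 at 4 weeks and 15 at 10 weeks, with none lower in any of the 3. Vcan, which encodes versican, rose in MCD livers (2.28) and at 10 weeks (2.29), with 1.10 at 4 weeks (adjusted p = 0.247, limma). Lox, which crosslinks collagen, rose by 2.81 and 2.27 in the same 2 comparisons, and Thbs1, thrombospondin-1, by 2.29 and 3.16. Fbn2, fibrillin-2, was called higher in MCD livers (2.57) and at 10 weeks, where it was at 0.261 to 2.09 CPM in STAM livers against 0 CPM in every Ctrl liver.

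Markers of the liver's cell types were counted in the same fits. Of all genes tested, 22.6% were called higher and 20.1% lower in MCD livers. The shares were 6.52% and 3.27% at 4 weeks, and 25.3% and 22.5% at 10 weeks. Of 10 stellate cell and fibroblast markers 7 were called higher in MCD livers, 1 higher and 1 lower at 4 weeks, and 7 higher and 1 lower at 10 weeks. Of 10 macrophage markers 5, 6 and 7 were called higher in the MCD, 4-week and 10-week comparison, with 0 lower and a summed level of 527.0 to 865.6 CPM in MCD against 299.5 to 467.9 CPM in CD livers. Among neutrophil markers 4 of 8, 0 of 9 and 5 of 9 tested were called higher. For 10 cholangiocyte markers the counts were 5, 5 and 7 called higher, and for 10 listed lymphocyte markers 2, 2 and 4 higher with 1, 0 and 0 lower. The 2 lymphocyte markers called higher in MCD livers lay near the share of all genes. Of 10 listed endothelial markers 3 were called lower in MCD livers and 2 at 4 weeks, and at 10 weeks 6 were higher and 1 lower. With so few genes, the 3 called lower in MCD livers do not stand apart from the share of all genes. Every marker of these lists had reads in each of the 3 tables, and Camp, a neutrophil granule gene, had at most 3 in the MCD and CD table. The part of these marker levels in the members' results was not tested.

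The authors' deposited table, at its own adjusted p-values under 0.05, called 19 members higher and 1 lower in MCD livers, 6 and 1 at 4 weeks, and 25 and 3 at 10 weeks. The shares of all genes called by those deposited p-values were not counted. Of the members called higher in MCD livers, 16 were shared between limma and the authors' deposited table, and of those called higher at 10 weeks 24 were. At 4 weeks all 7 calls of the authors' deposited table were the same. The authors' deposited table alone called Adamts4, Adamts5 and Mmp11 in MCD livers and Mmp7 at 10 weeks. Adamts17 and Mmp19 in MCD livers and Mmp15 and Mmp21 at 10 weeks were called by limma alone and not in the authors' deposited table.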

How the data were processed

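RNA from whole livers was measured by TruSeq stranded mRNA paired-end sequencing in 28 libraries, per the labels' protocols. STAR 2.4.2a and the mm10 build are named in the submitters' processing notes, while the counter, annotation, strand setting and the authors' test are not stated by the sources used here. The authors deposited 3 tables, 1 per comparison, each with log2 CPM per library, their own log2 fold changes and p-values, and gene lengths. The deposited log2 values carry a prior of about 0.25 reads scaled by library size, and whole reads were recovered from them for 100% of values within 0.05 reads. The deposited gene lengths, a column per the file headers, served only for levels per kb.

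From the deposited log2 CPM, limma 3.58.1 in R 4.3.3 (statmod 1.5.0) was fitted per table with trend and robust variance, leaving out genes at or below the 25th percentile of mean log2 CPM. Adjusted p-values under 0.05 (Benjamini-Hochberg, two-sided) were called. Differences between comparisons were contrasts in 1 fit over their 4 groups. The steps were checked on simulated data. Values in every sample are given for members called with a log2 fold change of at least 1 in size in some comparison and for all TIMPs, and other members by mean or fold change. Named partner genes were Col1a1, Col3a1, Plg, Plau, Reck, Vwf and Vcan whatever their result, with some of the up to 4 called genes of largest change in each list and comparison; another gene of that rule is not reported here. The members, lists and tests were chosen with earlier results of these data known. Levels in different tables were scaled separately by the authors, and tests of levels stay within a table. Library totals were 16.2 to 25.9 M reads, with scaling factors of 0.832 to 1.23. The least different pair of replicates had a chi-square of 11.9 per degree of freedom, so no library was counted as a duplicate. Gene positions are the deposited mm10 coordinates with 1 added to the start, since 22 starts then equal RefSeq starts and 3 do so as deposited. Alternatives were other scalings, voom weights, a prior of 2 reads, other filters, a replicate block and leaving out each library. Tables were handled with Python 3.11.15, pandas 2.3.3, numpy 2.4.6 and scipy 1.17.1, and figures were drawn with matplotlib 3.10.9.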

Additional observations from a re-analysis of the deposited data

Results flagged for a closer look

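Within groups of 4 or 5 libraries, 1 library stood apart from the others by Dixon's test at the 95% level in 20 of the 148 member groups examined, where chance gives about 1 in 20. Values are in CPM. In the 4-week Ctrl livers replicate 1 was the lowest for Adamts12 at 1.74, Adamts6 at 2.32 and Adamts9 at 2.9, and the highest for Mmp7 at 0.0645. In the same group replicate 3 stood apart for Mmp13 at 0.115, Mmp3 at 0.401 and Timp4 at 0.172, and replicate 4 for Timp1 at 0. In the 4-week STAM livers replicate 3 stood apart for Adamts12 at 2.04 and replicate 4 for Adamtsl5 at 0.47. In the 10-week Ctrl livers the values apart were 0.0957 for Adamts12 in replicate 3, 0 for Adamts16 and 0.0469 for Adamts17 in replicate 4, 0.0971 for Mmp3 in replicate 2 and 35.7 for Timp3 in replicate 1. In the CD livers they were 0 for Adamts16, 0.0668 for Adamts17, 0 for Adamts4 and 2.4 for Adamts6 in replicate 4, and 0.0508 for Mmp24 in replicate 1. Several of these, among them those of Adamts16, Adamts17, Mmp24, Mmp3 and Mmp7, rest on 0 or a few reads.

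The STAM effect was called different between the ages for 14 members, by the test of the difference itself (10 weeks minus 4 weeks, log2, limma). Of 41 tested members 12 were called positive and 2 negative, where 8.89% and 11.2% of all genes were. The positive differences were 2.64 for Adamts12, 2.06 for Adamts4, 1.85 for Adamts5, 1.82 for Adamtsl5, 1.78 for Adamts2, 1.78 for Mmp13, 1.77 for Adamts6, 1.57 for Mmp23, 1.43 for Mmp17, 1.22 for Mmp2, 1.08 for Timp2 and 0.64 for Adamts10. The negative differences were -0.50 for Mmp15 and -0.61 for Mmp19. For the 12 positive ones the mean Ctrl level was lower at 10 than at 4 weeks, each on the scaling of its own table. The calls for Mmp13, Adamts10 and Mmp23 were lost in 19, 11 and 6 alternatives. Those for Mmp15, Adamts4 and Mmp17 were lost in 2, 1 and 1.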

How the results depend on the processing

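Of 3926 alternative values for single members, 3739 kept their side of the threshold, 125 of them with a change of sign in a value that was not called. A call was lost in 110 and gained in 75, with the direction kept. In 2 more the sign changed with a call involved, both in the MCD comparison when libraries were scaled by total reads, where Mmp15 was at 0.40 (adjusted p = 0.0425) and Mmp19 at 0.12 (adjusted p = 0.371). That scaling moved the median log2 fold change of all genes by 0.42, 0.08 and 0.29 in the MCD, 4-week and 10-week comparison, and the share of called genes that were higher to 86.1%, 83.7% and 88.1%, against 52.9%, 66.6% and 53.0% with the authors' scaling. Under it 27 members were called higher and 1 lower in MCD livers (49.55% and 7.98% of all genes). In the age difference 1 member was called negative (3.59% of all genes). Quantile normalization gave 3 lower at 4 weeks (3.75% of all genes) and 16 higher at 10 weeks (18.8%). In the age difference it gave 7 positive and 1 negative (7.80% and 8.33%). With only genes above the median level tested, which leaves fewer members, 5, 1 and 7 were called higher in the MCD, 4-week and 10-week comparison. In the age difference 4 were positive. The shares of all genes were then 20.3%, 6.16% and 20.5%, and 9.17% in the age difference. In the difference between models 2 were called negative with voom weights and 3 with a prior of 2 reads, beside 1. Counting members with at most 3 reads as without reads gave 7 in place of 4 at 4 weeks. The cause was not tested except where fewer genes were tested. Leaving out 1 library gave 14 to 19 higher and 1 to 2 lower in MCD livers, 5 to 7 and 1 to 2 at 4 weeks, 23 to 27 and 3 to 4 at 10 weeks, 9 to 15 positive and 2 negative for the age difference, and 1 to 2 positive and 1 to 4 negative for the models. Some call was lost under at least 1 alternative for 7 of 19 members in MCD livers, 1 of 7 at 4 weeks and 13 of 29 at 10 weeks, most often under quantile normalization. Same-numbered replicates did not pair: their correlations ran from -0.41 to 0.02, 0 pairs exceeded 0.1 and 0 libraries correlated best with their own number. With the replicate block 17 members were called higher and 1 lower in MCD livers, 5 and 1 at 4 weeks, and 27 and 3 at 10 weeks. Depth limits the members with few reads, such as Mmp7, Mmp24, Mmp3, Mmp21 and Adamts17.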
